A study of Mus musculus with 6 samples.

Results

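Transcripts of 9 genes of the endothelial tight junction were followed in bEND.3 cells after knockdown of the long non-coding RNA Gm39822. The members were Cldn5, Ocln, Marveld2, Tjp1, Cgn, F11r, Jam2, Jam3 and Esam, taken by gene name from the table of read counts, which makes 9 of the 49315 genes listed. bEND.3 cells come from mouse brain endothelium and were immortalized, and they are labelled with the genotype "Gm39822 knockdown" in the treated group. Cells of both groups were transfected with Lipofectamine 2000 and an antisense LNA GapmeR at 100 nM, a short antisense molecule that lets RNase H cut its target RNA. The 4 GapmeR samples received a custom GapmeR against Gm39822, given by the paper under 1 catalogue number. The 2 negative control samples received a negative control GapmeR, so no untransfected cells and no other GapmeR sequence were compared. Neither an age nor a time after transfection was given by the labels, and the labels do not say that samples came from separate cultures. The p-values therefore measure the spread between these samples, which may be technical.

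Tight junctions seal the gap between neighbouring endothelial cells, and in brain vessels they form a large part of the blood-brain barrier. Claudins and occludin are membrane-spanning proteins that make up the strands, and tricellulin, encoded by Marveld2, seals the points where corners of cells meet. The scaffolds of the cytoplasmic plaque, among them the zonula occludens proteins and cingulin, tie the strands to actin. The junctional adhesion molecules and ESAM are immunoglobulin proteins that bind between neighbouring cells and recruit polarity proteins and leukocytes.

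Total counts were 30264086 to 37117934 in the GapmeR samples and 29261988 to 34266811 in the controls. A gene was tested if it had at least 5 counts in at least 2 samples, which left 18234 genes. The targeted Gm39822 had 2, 1, 4 and 2 counts after knockdown, against 61 and 56 counts in the controls, a log2 fold change of -4.82 (SE, its standard error, 0.41). Values of single samples are given in the order of GapmeR samples 1 to 4 and Negative Control 1 and 2 throughout. The cells carried endothelial transcripts in both groups. The summed level of 13 endothelial markers was 7538 to 8674 CPM (a gene's counts relative to the TMM-scaled library size) after knockdown and 9190 to 9580 CPM in the controls. Of these markers 3 were higher and 7 lower at an adjusted p under 0.05. Across all genes tested 45.3% passed, 25.4% higher and 20.0% lower, and fewer passed without Negative Control 1 or without Negative Control 2. With library size scaling only, 4 of the endothelial markers were higher and 5 lower. Egfl7 rose from 2467 to 2869 CPM, Cdh5 fell from 2462 to 1733 CPM and Pecam1 fell from 1265 to 1028 CPM. Of 12 brain endothelial markers 10 were tested, with 1 higher and 4 lower. The number lower was 1 without Negative Control 1, 1 without Negative Control 2 and 2 with library size scaling only. Slc2a1, the glucose transporter of brain endothelium, fell from 326 to 247 CPM, and Slc7a5, an amino acid transporter, rose from 92.6 to 116 CPM. Tfrc, the transferrin receptor, was at 99.3 CPM in the controls and 86.6 CPM after knockdown and did not pass. Foxq1 had at most 2 counts in each sample.

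Of the 9 tight junction genes 8 had enough counts for a test, and 5 of those 8 differed between the groups. Marveld2 was higher after knockdown, and Esam, F11r, Tjp1 and Jam2 were lower. Cldn5, Ocln and Jam3 did not pass, and Cgn was not tested. Across all genes tested, 45.3% passed the edgeR quasi-likelihood test at an adjusted p under 0.05, 25.4% higher and 20.0% lower. With a change of at least 1.5-fold as well, Marveld2 and Esam were left, where 25.4% of all genes passed, 17.8% higher and 7.62% lower. The median log2 fold change was -0.16 over the 8 members tested and 0.03 over all genes. Scaled by library size only, the count was 3 higher and 3 lower, because Cldn5 and Jam3 passed and Jam2 did not. Under that scaling the median of all genes moved to 0.17, and 74.1% of all calls were higher against 55.9% with TMM. In bulk RNA, fewer cells with a transcript and less of it in each cell cannot be told apart.

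**Figure D1:**
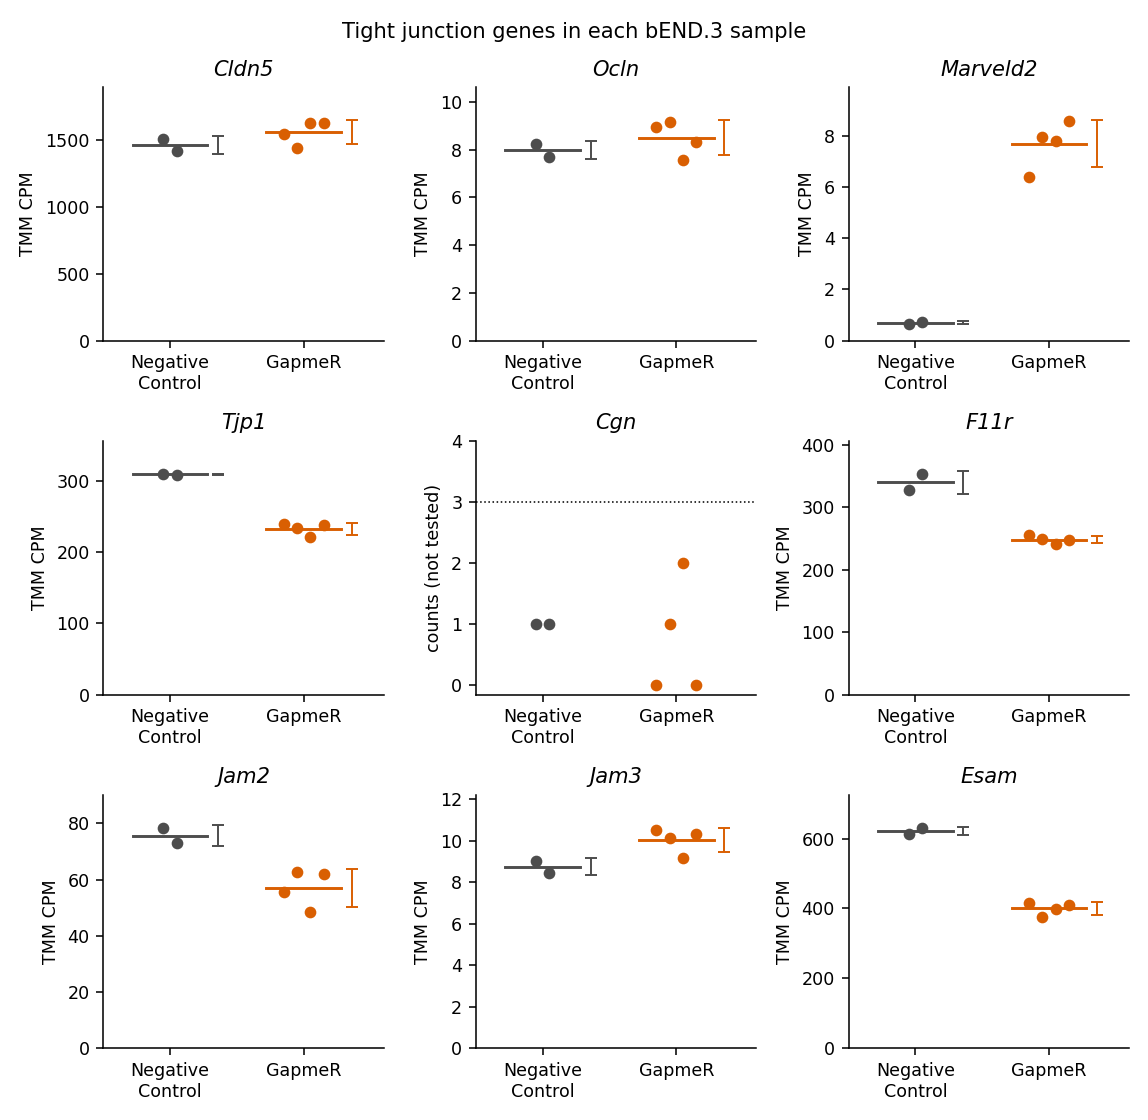
Level of each tight junction gene in every sample, in TMM-scaled CPM on linear axes, with points for samples, horizontal lines for group means and whiskers for SDs (4 GapmeR and 2 negative control samples); for Cgn the axis shows counts without mean or SD, and the dotted line marks 3 counts. The Marveld2 points lie at 6.40 to 8.57 CPM after knockdown and at 0.657 and 0.752 CPM in the controls, and the groups of Cldn5 and Ocln overlap.

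**Figure D2:**
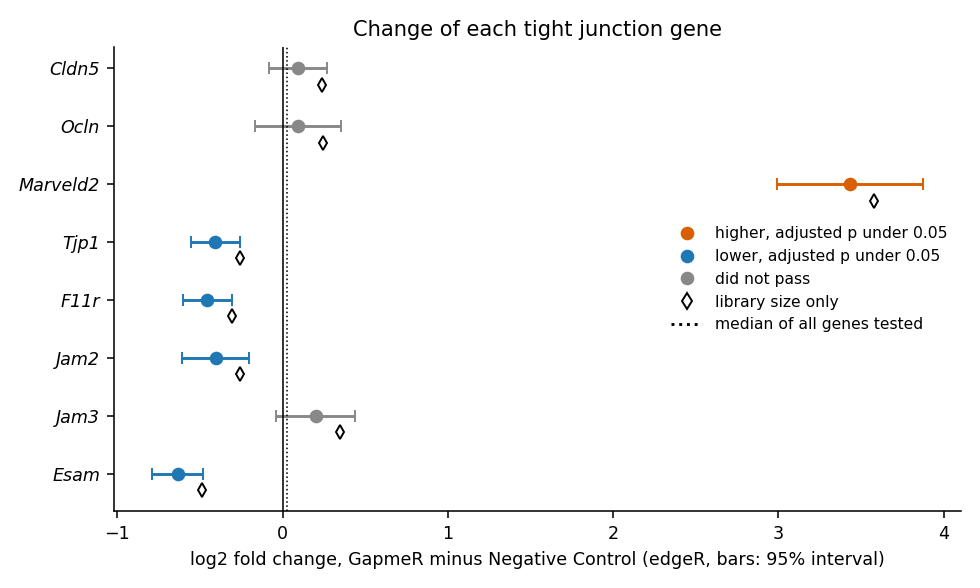
Log2 fold change of the 8 members tested, GapmeR minus negative control, from edgeR with TMM scaling, orange for higher, blue for lower and grey for members that did not pass. Horizontal bars are 95% confidence intervals, open diamonds are the values with library size scaling only, and the dotted line is the median of all genes tested, 0.03; Marveld2 stands at 3.43 and Esam lowest at -0.63.

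The sequences just upstream of the annotated starts are shown for Marveld2, the 1 member that rose, and for Cldn5 and F11r, a member that did not pass and a member that fell. For Marveld2 the 192 bases are the whole interval between its start and the end of the neighbouring gene Rad17. The stretches are from RefSeq on GRCm38.p6 (mm10), read on the strand of the gene, and they lie at chr13:100616972-100617163 (reverse strand), chr16:18776655-18776846 (forward strand) and chr1:171437369-171437560 (forward strand). Capitals mark matches to 5 short motifs, searched on both strands, so that a match on the opposite strand appears as the reverse complement. The TATA box was searched as TATAAA. The CCAAT box was searched by the letters of its name. For the GC box the letters were GGGCGG. For the core bound by ETS factors they were CCGGAA. For the E-box, the motif of many basic helix-loop-helix and zinc finger factors, they were CAGGTG. No 2 of the matches printed here overlap.
Marveld2: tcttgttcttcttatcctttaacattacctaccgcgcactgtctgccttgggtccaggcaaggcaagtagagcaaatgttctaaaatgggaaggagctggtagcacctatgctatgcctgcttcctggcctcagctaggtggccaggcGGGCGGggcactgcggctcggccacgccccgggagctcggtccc
Cldn5: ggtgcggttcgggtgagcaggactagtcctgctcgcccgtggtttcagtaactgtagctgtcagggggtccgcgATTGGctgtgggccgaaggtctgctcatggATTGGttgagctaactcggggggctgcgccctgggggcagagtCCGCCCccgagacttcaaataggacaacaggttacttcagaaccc
F11r: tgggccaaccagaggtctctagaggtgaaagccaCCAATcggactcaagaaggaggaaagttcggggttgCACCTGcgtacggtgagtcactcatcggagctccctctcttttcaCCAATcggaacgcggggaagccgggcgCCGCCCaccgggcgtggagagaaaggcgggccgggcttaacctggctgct

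The Marveld2 stretch held 1 GC box, beginning 44 bases before the start, and none of the other motifs. A second annotated start of Marveld2 had 1 GC box at 71 bases and no other motif. GC boxes were also the only matches for Tjp1 and for start 1 of Ocln, which are not printed, while Cgn and start 2 of Ocln held other motifs as well. The Cldn5 stretch held 2 CCAAT boxes, at 118 and 88 bases, and a GC box at 45 bases. The F11r stretch held 2 CCAAT boxes, at 158 and 77 bases, an E-box at 122 bases and a GC box at 50 bases. Over 32851 stretches of the same length from RefSeq promoters, a GC box occurred in 30.8%, a CCAAT box in 28.6% and an E-box in 13.3%. The ETS core occurred in 10.4% and the TATA box in 9.56% of them. These are matches of letters and not sites of binding. RefSeq promoter entries were matched for 6 of the 9 members, and Esam, Jam2 and Jam3 had no entry in the table used.

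Marveld2 (ENSMUSG00000021636), the gene of tricellulin, spans 100595957 to 100616971 on chromosome 13 of mm10 (reverse strand). After knockdown it had 217, 309, 242 and 277 counts, against 18 and 24 counts in the controls. Its level was 6.40, 7.93, 7.80 and 8.57 CPM after knockdown against 0.657 and 0.752 CPM in the controls. Every GapmeR sample was far above both controls, and the groups did not overlap. The means were 7.68 ± 0.914 (SD, n = 4) CPM and 0.704 ± 0.0671 (SD, n = 2) CPM. The log2 fold change was 3.43 (SE 0.21, edgeR quasi-likelihood test, adjusted p = 1.53e-09), a 10.8-fold rise with a 95% confidence interval of 7.96 to 14.7. Over all alternatives the log2 fold change was between 3.36 and 3.58.

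The genes on either side of Marveld2 were measured in the same libraries. Rad17, a checkpoint gene on the same strand, ends 192 bp before the start of Marveld2. It had 716, 666, 538 and 624 counts after knockdown and 479 and 647 in the controls, with means of 18.7 ± 1.88 (SD, n = 4) CPM and 18.9 ± 1.97 (SD, n = 2) CPM. Its log2 fold change was -0.01 (edgeR quasi-likelihood test, adjusted p = 0.926), and its means differed by less than the SD within either group. Ocln begins 43238 bp beyond the end of Marveld2 on the same strand and did not pass the test either. A same-strand gene ending within 2000 bp upstream was found for 1096 of 16138 tested genes with a RefSeq position, or 6.79%. The strand setting of the counting is not given in the sources used here, and a small nuclear RNA gene, Gm24261, lies inside Marveld2 on the opposite strand, with at most 1 count in a sample.

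**Figure D3:**
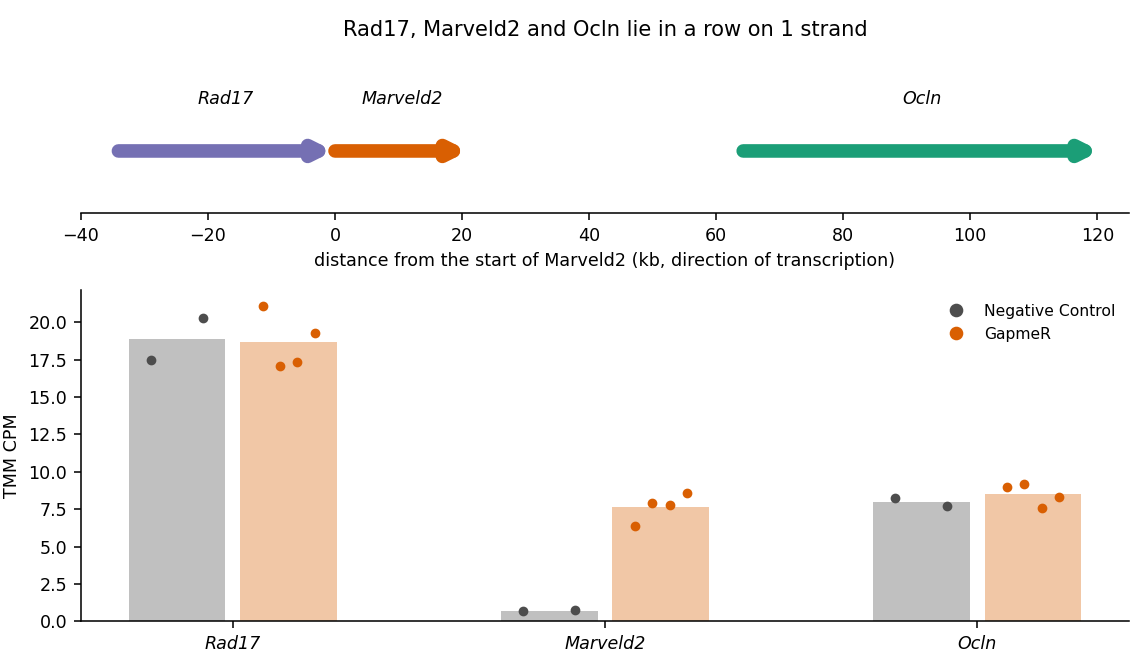
The region of Marveld2 with its neighbours Rad17 and Ocln, drawn to scale by distance from the Marveld2 start, with arrows for the direction of transcription, above the level of the 3 genes in TMM-scaled CPM, with points for samples and bars for group means. Marveld2 is at 6.40 to 8.57 CPM after knockdown against 0.657 and 0.752 CPM, while the Rad17 means are 18.7 and 18.9 CPM.

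Cldn5 (ENSMUSG00000041378), the main claudin of brain endothelium, is a gene of 1 exon that spans 18776847 to 18778262 on chromosome 16 of mm10 (forward strand). Its level was 1545, 1441, 1629 and 1626 CPM after knockdown against 1509 and 1416 CPM in the controls. The groups overlapped, since GapmeR sample 2 was below 1 of the controls. The means were 1560.2 ± 88.7 (SD, n = 4) CPM and 1463 ± 65.5 (SD, n = 2) CPM, and the log2 fold change was 0.09 (95% confidence interval -0.08 to 0.27, edgeR quasi-likelihood test, adjusted p = 0.372). Scaled by library size only, Cldn5 passed with a log2 fold change of 0.24 (edgeR, adjusted p = 0.0188), which was 0.07 above the median of all genes under that scaling.

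Ocln (ENSMUSG00000021638) encodes occludin and spans 100496504 to 100552718 on chromosome 13 of mm10 (reverse strand). Its level was 8.97, 9.17, 7.57 and 8.32 CPM after knockdown against 8.25 and 7.71 CPM in the controls. The lowest of all 6 values was GapmeR sample 3, so the groups overlapped. The log2 fold change was 0.10 (95% confidence interval -0.16 to 0.36, edgeR quasi-likelihood test, adjusted p = 0.551). Among the 3 strand genes, the 1 that passed was Marveld2, which had the fewest counts of them in the controls.

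Tjp1 (ENSMUSG00000030516) encodes zonula occludens protein 1, the scaffold that binds claudins, occludin and the junctional adhesion molecules and ties them to actin. It spans 65296165 to 65527850 on chromosome 7 of mm10 (reverse strand). Its level was 240.2, 234, 221 and 238 CPM after knockdown against 309.9 and 309 CPM in the controls. All GapmeR samples were below both controls, whose values were close to each other. The means were 233 ± 8.36 (SD, n = 4) CPM and 309 ± 0.848 (SD, n = 2) CPM, and the log2 fold change was -0.41 (SE 0.07, edgeR quasi-likelihood test, adjusted p = 0.000177).

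Cgn (ENSMUSG00000068876) encodes cingulin, a plaque protein best known from epithelia. After knockdown it had 0, 1, 2 and 0 counts, against 1 count in each control. These are under the 3 counts taken as the limit of detection, which corresponds to 0.0770 to 0.109 CPM, so a difference was not detectable at this depth. Cgnl1, which encodes the related protein paracingulin, was well measured. Its level rose from 574 ± 15.1 (SD, n = 2) CPM in the controls to 748 ± 34.7 (SD, n = 4) CPM, a log2 fold change of 0.38 (edgeR quasi-likelihood test, adjusted p = 0.000752). This limit covers counting error only.

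Esam (ENSMUSG00000001946) encodes an adhesion molecule of endothelial cells and platelets, and spans 37528089 to 37538319 on chromosome 9 of mm10 (forward strand). Its level was 416, 375, 399.8 and 411 CPM after knockdown against 613 and 631 CPM in the controls. Every GapmeR sample was below both controls by more than the spread within either group. The means were 400.5 ± 18.0 (SD, n = 4) CPM and 622 ± 12.6 (SD, n = 2) CPM. The log2 fold change was -0.63 (SE 0.07, edgeR quasi-likelihood test, adjusted p = 2.97e-06), and the controls were 1.55-fold higher. Msantd2, a gene that ends 1975 bp upstream of Esam on the same strand, moved the other way, from 7.90 to 16.3 CPM (log2 fold change 1.05, edgeR quasi-likelihood test, adjusted p = 4.12e-06).

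F11r (ENSMUSG00000038235) encodes junctional adhesion molecule A and spans 171437561 to 171464593 on chromosome 1 of mm10 (forward strand). Its level was 255, 249, 240.3 and 248 CPM after knockdown against 327 and 353 CPM in the controls. All GapmeR samples were below both controls. The log2 fold change was -0.45 (SE 0.07, edgeR quasi-likelihood test, adjusted p = 6.69e-05). Jam2 (ENSMUSG00000053062), for junctional adhesion molecule B, spans 84774123 to 84826380 on chromosome 16 of mm10 (forward strand). Its level was 55.6, 62.7, 48.3 and 61.9 CPM after knockdown against 78.4 and 72.9 CPM in the controls. The groups did not overlap, but the GapmeR samples spread more widely than for F11r. The log2 fold change of Jam2 was -0.40 (SE 0.09, edgeR quasi-likelihood test, adjusted p = 0.00271). Without Negative Control 1 it was -0.33 (edgeR, adjusted p = 0.0645), and scaled by library size only -0.26 (edgeR, adjusted p = 0.0517), which was -0.43 relative to the median of all genes under that scaling.

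Jam3 (ENSMUSG00000031990), for junctional adhesion molecule C, spans 27097384 to 27155421 on chromosome 9 of mm10 (reverse strand). Its level was 10.5, 10.1, 9.19 and 10.3 CPM after knockdown against 9.05 and 8.46 CPM in the controls. Every GapmeR sample was above both controls, although GapmeR sample 3 was close to Negative Control 1. The log2 fold change was 0.20 (95% confidence interval -0.04 to 0.44, edgeR quasi-likelihood test, adjusted p = 0.162). With library size scaling alone it was 0.35 (edgeR, adjusted p = 0.0220), or 0.17 above the median of all genes under that scaling. In all, the groups did not overlap for 6 of the 8 members tested, against 59.2% of all genes tested. For each of these 6 the 2-sided exact permutation test gave p = 0.0667, the smallest it can give with 4 samples against 2.

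Divided by the length of their exons, the members differed by orders of magnitude in level. In the controls Cldn5 was at 1033 ± 46.3 CPM per kb of exon (SD, n = 2), Esam at 204 ± 4.13, F11r at 98.3 ± 5.28 and Tjp1 at 39.0 ± 0.107 CPM per kb. Below them came Jam2 at 6.84 ± 0.352, Jam3 at 1.28 ± 0.0613, Ocln at 0.850 ± 0.0408 and Marveld2 at 0.208 ± 0.0198 CPM per kb. Cgn was last at 0.00543 CPM per kb, under the limit of detection. No neighbours in this order overlapped in their values, in either group. After knockdown the first 5 places were the same, and Marveld2 stood sixth at 2.26 ± 0.269 CPM per kb (SD, n = 4), above Jam3 at 1.47 ± 0.0862 and Ocln at 0.907 ± 0.0767 CPM per kb. With the length of the longest transcript in place of all exons the order was the same, but the values of Marveld2 and Jam3 overlapped after knockdown.

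The 4 immunoglobulin genes were also compared as shares of their summed level per kb of exon. Esam made up 62.7 ± 1.18% of the sum after knockdown (SD, n = 4) and 65.7 ± 0.575% in the controls (SD, n = 2). F11r made up 34.2 ± 0.923% against 31.6 ± 0.784%, and Jam3 0.699 ± 0.0348% against 0.413 ± 0.0317%. In these 3 shares the groups did not overlap (2-sided exact permutation test, p = 0.0667, the smallest possible). The share of Jam2 was 2.46 ± 0.306% against 2.20 ± 0.177%, and its groups overlapped (2-sided exact permutation test, p = 0.4). In total 4 shares were compared, and they are not independent because they sum to the whole. The summed CPM of the 4 genes was 697 to 737 after knockdown and 1028 to 1065 in the controls. A higher share is thus not a higher level, and F11r, with a higher share, was lower in CPM.

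**Figure D4:**
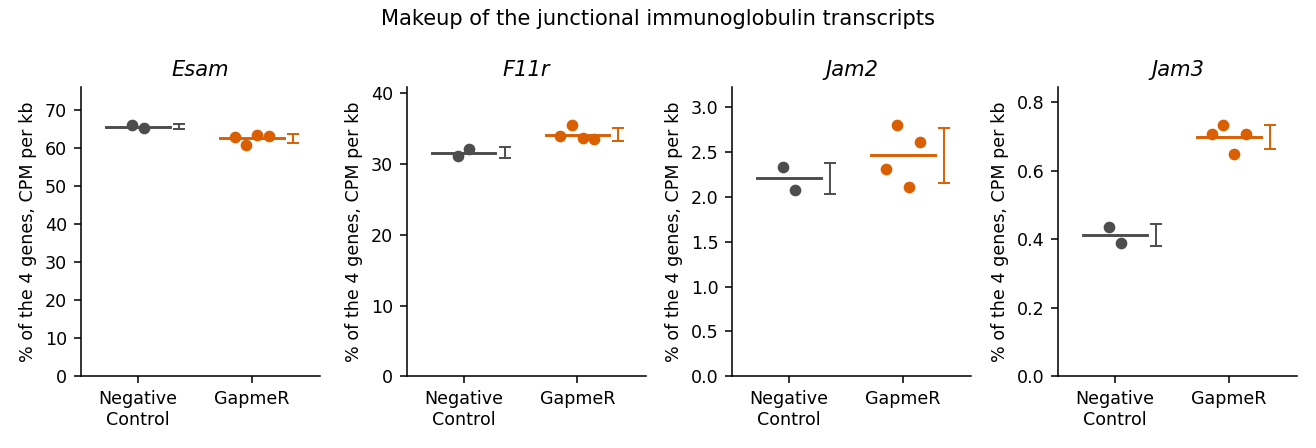
Share of F11r, Jam2, Jam3 and Esam in the summed level per kb of exon of these 4 genes, in percent, with points for samples, horizontal lines for group means and whiskers for SDs (4 GapmeR and 2 negative control samples). The share of Esam is 62.7% on average after knockdown and 65.7% in the controls, and that of F11r 34.2% and 31.6%.

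Around these members, 79 other genes of the tight junction and its actin belt were compared, in 6 lists. Of them 57 were tested, 11 were higher and 16 lower, where 45.3% of all genes passed, 25.4% higher and 20.0% lower. The same shares apply beside the counts of each list and of the cell type markers below in the fit on all 6 samples, but not in the alternatives. With 1 GapmeR sample left out, 41.7% to 49.0% of all genes passed. Fewer of all genes passed without Negative Control 1 or without Negative Control 2, and with library size scaling 74.1% of all calls were higher. Their median log2 fold change was -0.09. Without Negative Control 2 the count was 6 higher and 6 lower, without Negative Control 1 it was 8 higher and 10 lower, and with library size scaling alone it was 17 higher and 6 lower.

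Of 22 other claudins 6 were tested, 3 of them higher and 1 lower, and 11 had at most 3 counts in every sample. Without Negative Control 2 the count was 1 higher and 0 lower. Cldn15, a claudin that forms cation pores in the intestine, had 271, 291, 234 and 289 counts after knockdown against 10 and 34 in the controls. It rose from 0.715 ± 0.495 (SD, n = 2) CPM to 7.99 ± 0.678 (SD, n = 4) CPM, a log2 fold change of 3.43 (edgeR quasi-likelihood test, adjusted p = 8.58e-08). Fis1, a gene of mitochondrial fission that ends 1634 bp upstream of Cldn15 on the same strand, had a log2 fold change of -0.07 (edgeR, adjusted p = 0.447). Cldn4 and Cldn7, claudins of epithelia named here after their values were seen, were also higher. Cldn4 had 11, 11, 14 and 12 counts against 2 and 2, and Cldn7 had 14, 16, 24 and 21 counts against 4 and 2. Cldn12 fell from 30.9 to 26.2 CPM (log2 fold change -0.24, edgeR, adjusted p = 0.0259). This call, the 1 lower call of the list, was lost with upper quartile or library size scaling, with at least 10 counts in every sample, in the fits on the 4 samples with shared replicate numbers, and without GapmeR 1, GapmeR 3 or either control.

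Of 5 tricellular and MARVEL genes 4 were tested and 1 passed, as lower, while without GapmeR 2 there was also 1 higher. Marveld1, a relative of tricellulin, fell from 91.6 to 66.3 CPM, a log2 fold change of -0.46 (edgeR quasi-likelihood test, adjusted p = 0.000129). Marveld3 had 4, 3, 6 and 8 counts after knockdown and 1 count in each control, which did not pass (edgeR, adjusted p = 0.0779). Lsr, for a protein that recruits tricellulin to cell corners, had 13 to 25 counts after knockdown and 11 and 15 counts in the controls, and its groups overlapped in CPM.

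All 15 other plaque scaffolds were tested, 3 of them higher and 2 lower, and the median of their log2 fold changes was 0.07. Besides Cgnl1, the membrane-associated scaffold Magi1 rose from 28.1 to 34.5 CPM (log2 fold change 0.29, edgeR quasi-likelihood test, adjusted p = 0.00734). Amotl2, an angiomotin family member, fell from 220.1 to 167 CPM (log2 fold change -0.40, edgeR, adjusted p = 0.000539). Tjp3, a relative of Tjp1 known from epithelia and named after its values were seen, had 26, 27, 25 and 32 counts after knockdown and 6 and 2 in the controls. Scaled by library size only, 8 of the 15 scaffolds were higher and 1 lower. The number lower was also 1 without GapmeR 4 and without either control.

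All 17 regulators of the junctional actin belt were tested, and 10 were lower and 2 higher. Of all genes tested, 20.0% were lower and 25.4% higher. The median log2 fold change of the 17 regulators was -0.27. Arhgef11, an exchange factor for RhoA, fell from 17.5 to 9.10 CPM (log2 fold change -0.94, edgeR quasi-likelihood test, adjusted p = 9.41e-07). Rock1, a kinase that promotes actomyosin contraction, fell from 59.3 to 38.7 CPM (log2 fold change -0.62, edgeR, adjusted p = 2.59e-05). Afdn, for afadin, a partner of nectins and actin, fell from 253 to 183 CPM (log2 fold change -0.47, edgeR, adjusted p = 3.10e-05). The 2 higher genes, named after their values were seen, were Rhoa and Cdc42bpa, a small GTPase and a kinase of the actin cytoskeleton. The number lower in this list was 3 scaled by library size only, 7 without Negative Control 1 and 3 without Negative Control 2. The number higher was 1 without GapmeR 1, GapmeR 4 or either control.

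Of 13 polarity genes 11 were tested, with 2 higher and 1 lower. The number higher was 1 without Negative Control 2, and the number lower was 3 without GapmeR 2 and 2 without GapmeR 3. Rap1b, a small GTPase that strengthens endothelial junctions, fell from 642 to 448 CPM (log2 fold change -0.52, edgeR quasi-likelihood test, adjusted p = 6.66e-05). The higher genes, Crb1 and Pard6g, were named after their values were seen. Crb1 had 18, 9, 8 and 10 counts after knockdown against none in either control, a rise of at least 6.57-fold against a floor of 3 counts over both controls together. The median log2 fold change of the polarity list was -0.12, also with Crb1 at this bound. Of 7 other junctional immunoglobulin genes 4 were tested. Jaml passed as higher, with 1, 9, 8 and 10 counts against 1 and 0, and Igsf11 as lower, with 5, 7, 12 and 5 counts against 11 and 19, both named after their values were seen. The groups of Jaml overlapped. Neither gene passed in DESeq2's Wald test or without GapmeR 4 or either control, and 0 genes of the list were higher in limma-voom. Without GapmeR 1 the list had 2 higher and 0 lower, and without GapmeR 2 it had 1 higher and 0 lower.

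**Figure D5:**
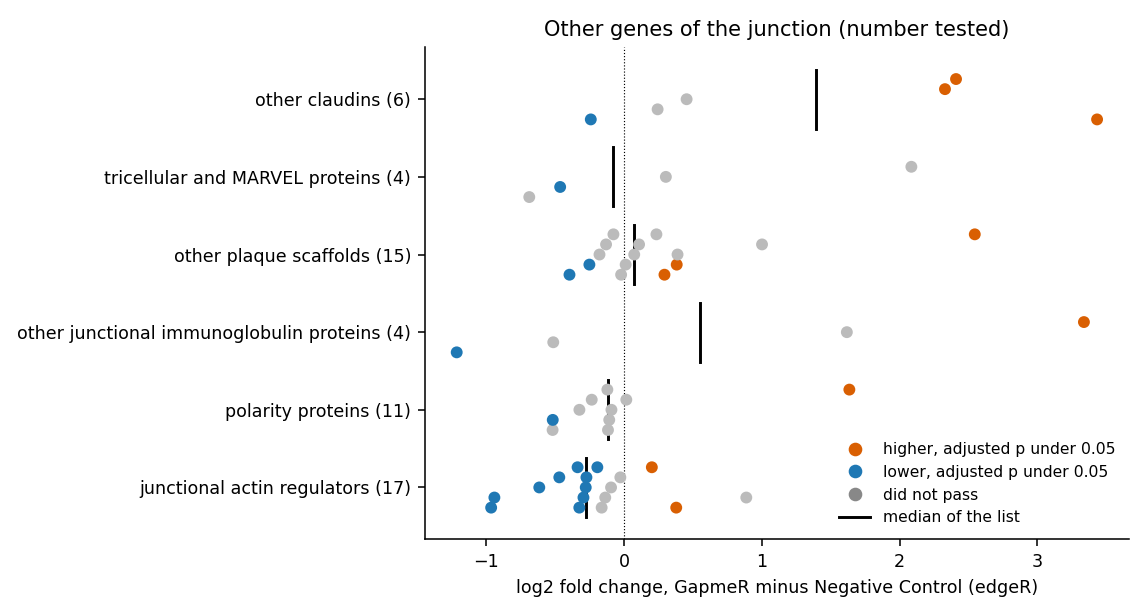
Log2 fold changes of the tested genes of the 6 related lists, GapmeR minus negative control, with a black bar at the median of each list, orange points for genes higher and blue points for genes lower at an adjusted p under 0.05, and grey points for the rest. Crb1, at 0 counts in both controls, is not drawn but counts in its list's median; the actin regulators lie mostly below 0, with a median of -0.27, and Cldn15 stands at 3.43.

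Markers of other cell types were also compared, where 45.3% of all genes tested passed, 25.4% higher and 20.0% lower. Most of the markers tested did not pass. Of 10 epithelial markers 6 were tested and 3 were higher, and their summed level was 6.83 to 8.56 CPM after knockdown against 1.72 CPM in both controls. Grhl2, a transcription factor of epithelial junction genes, made up most of this sum and rose from 0.926 ± 0.0194 (SD, n = 2) CPM to 6.01 ± 0.720 (SD, n = 4) CPM (edgeR quasi-likelihood test, adjusted p = 2.46e-08). Krt8, which also passed as higher and is named after its values were seen, had 5, 10, 5 and 9 counts against 1 and 2. Krt18 had 19 to 22 counts after knockdown and 8 and 17 in the controls, and Ovol1 had 12 to 16 counts against 0 in both controls. Of the same list, Epcam, Cdh1 and Prom2 had at most 2 counts in every sample, in both groups, and were not tested. The 3 that passed as higher were Grhl2, Krt8 and Ovol1. The part of these markers in the rise of Marveld2, Cldn4, Cldn7 and Tjp3 was not tested.

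The 12 macrophage markers summed to 230.2, 211, 363 and 395.5 CPM in GapmeR samples 1 to 4 and 178 and 172 CPM in the controls, and 2 of them passed, both higher. Without GapmeR 2, 5 passed as higher, without GapmeR 1, 4 did, and 4 did in DESeq2's Wald test and with no filter on low counts. Lyz2 was at 131 ± 65.6 (SD, n = 4) CPM after knockdown and 65.4 ± 4.74 (SD, n = 2) CPM in the controls, without passing, and Cd68 rose from 88.3 to 119 CPM. The pericyte and fibroblast markers summed to 18.4 to 78.4 CPM against 15.9 to 17.0 CPM. Of these 12 markers 10 were tested and 1 was higher, while without GapmeR 3 or Negative Control 1 there was also 1 lower, and the highest sum was that of GapmeR sample 3, with 1179 counts of Col1a1. GapmeR sample 3 also had the lowest values of Ocln, Tjp1, F11r, Jam2 and Jam3 in its group. Without it, the same 5 members passed in the same directions. The part of these cell type markers in the differences of the other members was not tested.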

How the data were processed

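Ribosomal RNA was removed before paired-end sequencing of bEND.3 RNA. The authors ran the bcbio-nextgen pipeline and aligned reads to mm10 with STAR, and the submitters' processing notes name Trimmomatic 0.36, STAR 2.5.2b and Subread 1.5.2. What the authors deposited are raw counts of reads for each Ensembl gene. The strand setting is not given in the sources used here, so overlapping genes may share reads (RefSeq lists a non-coding RNA that overlaps Ocln, Marveld2, Cgn, Jam2 and Jam3). The paper gives n = 4 for each group, while 4 and 2 samples were analysed here. A further 1 column of per-sample counts, headed like those of the controls, matched no listed sample and was not used.

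Counts were tested with edgeR 4.0.16 in R 4.3.3, by a quasi-likelihood test with TMM scaling (factors 1.02 to 1.05 after knockdown, 0.932 and 0.936 in the controls) and Benjamini-Hochberg adjustment over all 18234 genes that reached 5 counts in 2 or more samples. SDs are between samples. The biological coefficient of variation was 8.42%. Chi-square per degree of freedom between replicates was 5.41 to 25.2, so none was the same library within sampling noise. Alternatives were DESeq2 1.42.0 and its size factors, upper quartile and library size scaling, limma-voom (limma 3.58.1), 2 other filters, 2 other thresholds, the replicate block and each sample left out. The block's 4 samples without a block and the longest-transcript length for levels per kb (but not for the shares) were added after seeing the data. Exon lengths came from GENCODE on GRCm39, and positions and sequences from RefSeq on mm10. Functions were tested on simulated data. A first requirement there, on the share of false calls, was not met. After this was seen, it was replaced by requirements on p-values of unchanged genes, interval coverage and recovered fold changes. Tables used Python 3.11.15 and pandas 2.3.3. Labels give no batch or date.

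The members and lists were chosen with earlier results of these data known. All members and Gm39822 are named. Of each related list, up to 3 genes are named that had the largest absolute log2 fold change among those with an adjusted p under 0.05 and a mean of at least 1 CPM, and of each marker list up to 3 by mean CPM.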

Additional observations from a re-analysis of the deposited data

Results flagged for a closer look

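In 1 of 24 values checked, a sample stood apart from the rest of its group by Dixon's criterion for 4 samples. Arhgef11 was at 9.56 CPM in GapmeR sample 1 and at 8.93 to 8.99 CPM in the other GapmeR samples, so the gap took up 0.906 of the group's range. Chance flags about 1 in 20 groups.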

How the results depend on the processing

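Of the 9 tight junction genes 2 passed, 1 of them lower, when a change of at least 1.5-fold was also asked for, and 3 were higher with library size scaling only, while every other alternative gave 4 or 5 calls. Cldn5 (0.24) and Jam3 (0.35) passed only with library size scaling, and Jam2 did not pass there (-0.26) or without Negative Control 1 (-0.33). No member changed direction under any alternative. Of the related genes 17 passed with at least 10 counts in every sample, 6 of them higher, a filter that tests fewer genes and drops Gm39822. With library size scaling 17 were higher and 6 lower. With each sample left out, 12 to 28 passed, 6 to 13 higher and 6 to 15 lower, with the lowest counts without Negative Control 2. A lone control left in this way is assumed to vary like the GapmeR samples, and fewer of all genes passed in these fits too. Not divided by length, the share of Jam2 moved to 0.739 and that of Jam3 to 0.565 points of difference (cause: the lengths).

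Replicate numbers, taken from the sample titles, are shared by only 2 pairs of samples. The deviations of same-numbered samples had correlations of -0.11 and 0.17 over 8870 genes. The deviations of 2 controls mirror each other, so these correlations are not separate and cannot decide whether samples were paired. The count columns number the GapmeR samples otherwise, and a pairing by those numbers was not tested. With the replicate block on the 4 samples with shared title numbers, 5 members and 24 related genes passed, and without a block on the same samples 5 and 21. The block changed no call of a member. Cgn, under 3 counts in each sample, is limited by depth.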
